A study of Homo sapiens with 6 samples.

Results

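The set described here is 10 genes known from luminal breast cancer, GATA3, FOXA1, XBP1, TFF1, TFF3, AGR2, AGR3, GREB1, CA12 and MYB. Its members are all array rows whose platform gene symbol is exactly one of these names, which gave 23 probe sets of the 49395 in the table. Of the 10 genes, 6 had several probe sets and 4 had 1. Expression was measured in MDA-MB-231, an established human triple-negative breast cancer cell line, grown with serum and treated for 8 h either with DMSO, the solvent, or with 5 µM SAHA (vorinostat), an inhibitor of histone deacetylases. Each group has 3 Affymetrix PrimeView arrays, and whether these came from separate cultures is not stated, so a p-value here reflects the variation among 3 arrays per group, part or all of which may be technical. The small number of arrays limits the precision of every value.

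Luminal epithelial cells line the milk ducts, and the tumours that resemble them depend on a network of transcription factors in which GATA3 and the pioneer factor FOXA1 open chromatin for the estrogen receptor ESR1. TFF1, GREB1, CA12, MYB and XBP1 are classical targets of that receptor, and TFF3, AGR2 and AGR3 are secretory genes of the same tumours. MDA-MB-231 lacks the estrogen receptor and is counted among the mesenchymal, basal-like lines. The comparison asks which of the luminal transcripts differ between SAHA and DMSO in these cells.

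With SAHA the transcription factors GATA3, FOXA1 and XBP1 fell in their brightest probe sets, while AGR2, CA12 and GREB1 rose in theirs. FOXA1 was called in 1 of 2 probe sets and GREB1 in 1 of 3, at a mean log2 value of 4.44. TFF1, TFF3, AGR3 and MYB did not pass the threshold. The falls of the brightest probe sets were 2.35-fold for GATA3, 2.23-fold for XBP1 and 1.72-fold for FOXA1, and the rises were 2.75-fold for AGR2, 1.60-fold for CA12 and 1.37-fold for GREB1. In limma's test over all probe sets, at a Benjamini-Hochberg adjusted p under 0.05, 7 member probe sets were higher and 5 lower, so that 12 of 23 were called. Of all 49293 probe sets tested, 46.4% were called, 22.2% higher and 24.1% lower, and the members' share of 52.2% lies near that background. Taken as 1 probe set per gene, 3 of the 10 genes were higher, against 24.6% of 18132 genes, and 3 lower, against 23.8%. Together 60.0% of the member genes were called and 48.3% of all genes. The groups did not overlap in 13 of the 23 member probe sets and in 54.4% of all probe sets, nor in 6 of the 10 member genes and 55.5% of all genes. Calls were more frequent among brighter probe sets. Of the 10 member probe sets with a mean log2 value of at least 5, 8 were called, against 62.4% of all such probe sets, and of the 13 dimmer ones 4 were called, against 15.1%. The brightness of a probe set also depends on its probes, so levels are compared within a probe set only, and "dim" means a mean log2 value under 5. In RNA from whole cultures, fewer cells with a transcript and less of it per cell cannot be told apart.

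**Figure D1:**
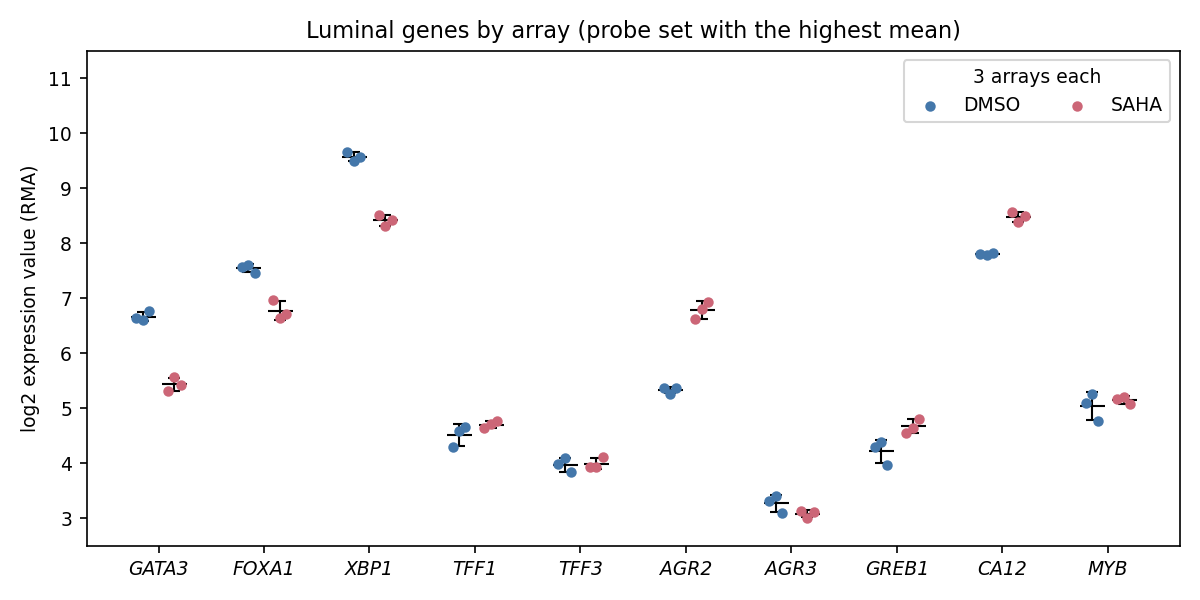
The log2 expression value of each luminal gene is shown for every array (points), with mean and SD (bars, n = 3), in its brightest probe set. The 3 SAHA points lie below the 3 DMSO points for GATA3, FOXA1 and XBP1 and above them for AGR2, GREB1 and CA12, while the groups overlap for TFF1, TFF3, AGR3 and MYB.

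Beside these results stand the checks on the arrays and the cells. For ACTB, the 3' minus the 5' probe set, which depends on how intact the RNA was, averaged 0.89 log2 units with DMSO (SD 0.16, n = 3) and 0.61 with SAHA (SD 0.06, n = 3). The groups did not overlap (exact permutation test, two-sided, p = 0.1, which is the lowest value possible with 3 arrays each, adjusted p = 0.2 over 4 controls). For GAPDH the same difference was 0.03 with DMSO and 0.06 with SAHA (SD 0.02 in each, n = 3), in the opposite direction and again without overlap (exact permutation p = 0.1, adjusted p = 0.2). Their part in the members' changes was not tested. All 7 markers of the mesenchymal state of these cells, such as VIM and CAV1, were at mean log2 values of 9.44 to 13.99, 5 of them lower and 1 higher with SAHA. The 7 luminal line markers lay between 3.33 and 8.73. PGR, CDH1 and ESR1 were at 3.33, 4.19 and 5.99 and SPDEF at 7.18, none of them called, while ERBB3 at 6.07 and KRT19 at 8.73 were higher with SAHA and EPCAM at 8.21 was lower. The mesenchymal markers are those of the labelled line, and the luminal list as a whole was not at the floor. The leukocyte and endothelial markers, 3 and 2 of them measured, had mean log2 values between 3.29 and 5.04. Of these, CD14 was called higher and CD3E lower.

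GATA3, a zinc finger factor that specifies the luminal lineage, fell in all 3 of its probe sets. In its brightest (11729222_a_at) the log2 values were 6.64, 6.60 and 6.76 in DMSO and 5.31, 5.56 and 5.43 in SAHA arrays. The groups lay more than 1 log2 unit apart, with each SAHA array below each DMSO array. The log2 fold change was -1.23 ± 0.08 (SE; limma's adjusted p = 9.21e-06), or 42.5% of the DMSO level. The second probe set (11729223_at) had values of 5.87, 5.94 and 5.73 in DMSO and 4.32, 3.76 and 4.25 in SAHA arrays. Its fold change of -1.73 ± 0.15 (limma's adjusted p = 3.03e-05) was the largest in size among the 23 member probe sets. The last and dimmest one (11758057_s_at), of a kind shared by similar transcripts, was at 4.36, 3.83 and 4.19 against 3.41, 3.82 and 3.31, where the lowest DMSO and the highest SAHA array nearly met. It fell by 0.62 ± 0.17, a call that was lost without the first DMSO array (-0.50, limma's adjusted p = 0.0561), the third DMSO array (-0.58, 0.0518), the first SAHA array (-0.56, 0.0645) or the third SAHA array (-0.51, 0.0630).

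FOXA1, the forkhead pioneer factor that lets the estrogen receptor reach its sites, fell in its brighter probe set (11723333_at). Values were 7.57, 7.61 and 7.47 in DMSO and 6.97, 6.64 and 6.71 in SAHA arrays, and the highest SAHA array, the first, was still below all DMSO arrays. The log2 fold change was -0.78 ± 0.10 (limma's adjusted p = 0.000250), or 58.3% of DMSO. The other probe set (11748971_a_at) was at 5.21, 4.98 and 5.30 against 4.86, 4.95 and 4.95. The lowest DMSO array lay just above the highest SAHA arrays, and the difference of -0.24 ± 0.09 did not pass (limma's adjusted p = 0.0628, 95% interval of the difference -0.45 to -0.03). Without the second DMSO array it was -0.33 and passed (limma's adjusted p = 0.00945). It also passed when only probe sets with a mean log2 value of at least 5 were tested (limma's adjusted p = 0.0384). After another quantile normalization it was -0.28 and passed as well (limma's adjusted p = 0.0345). FOXA2 and FOXA3, the other forkhead factors of this subfamily, each had 1 probe set. FOXA2 fell by 1.16 ± 0.10 and FOXA3 by 0.88 ± 0.10. FOXA2 and FOXA3 were named after their values were seen. The 3 FOXA genes were thus each lower in the probe sets that stand for them, as were 23.8% of all genes.

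XBP1, a bZIP factor of the unfolded protein response that is high in luminal tumours, was measured by 1 probe set (11729575_a_at), so its spliced, active form and its unspliced form are not told apart. Its log2 values were 9.66, 9.50 and 9.56 in DMSO and 8.52, 8.31 and 8.42 in SAHA arrays. The groups were clearly separated and varied little within themselves. The log2 fold change was -1.16 ± 0.08 (limma's adjusted p = 9.02e-06), or 44.8% of DMSO. Over 17 alternative settings of the gene-level fit it lay between -1.21 and -0.99, each past its threshold.

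The promoters of FOXA1 and XBP1 are printed because these factors fell together. Each is the 250 bases before the start site, from RefSeq's GRCh38.p14 table, on the minus strand, at chr14:37595250-37595499 for FOXA1 and chr22:28800570-28800819 for the more upstream of the 2 XBP1 starts listed. Capitals mark motif matches, searched on both strands, and the shares are of all 35116 such windows. The GC box GGGCGG, bound by SP1, was in 42.6% of windows. The CCAAT box, bound by NF-Y, was in 32.0% of windows, and the TATA box, searched as TATAAA, in 10.7% of them. A site for GATA factors, searched as AGATAA, was in 9.17% of windows, and one for forkhead factors, searched as TGTTTAC, in 2.98% of them. An element bound by XBP1 itself, searched as TGACGTGG, was in 0.612% of windows. The palindromic estrogen response element was searched as well and matched in 0.0399% of all windows.
FOXA1: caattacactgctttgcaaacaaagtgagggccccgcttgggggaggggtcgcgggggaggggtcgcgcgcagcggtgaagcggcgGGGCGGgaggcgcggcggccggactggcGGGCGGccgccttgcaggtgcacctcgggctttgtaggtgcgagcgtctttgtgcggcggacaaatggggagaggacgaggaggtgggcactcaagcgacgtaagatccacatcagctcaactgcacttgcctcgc
XBP1: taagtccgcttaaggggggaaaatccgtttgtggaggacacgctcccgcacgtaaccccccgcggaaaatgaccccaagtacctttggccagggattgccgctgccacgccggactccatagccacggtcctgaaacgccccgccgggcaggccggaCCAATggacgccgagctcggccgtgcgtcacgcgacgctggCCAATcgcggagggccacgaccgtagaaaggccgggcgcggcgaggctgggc
FOXA1 held 2 GC boxes, 164 and 136 bases before the start site. XBP1 held 2 CCAAT boxes, 93 and 52 bases before it, and no GC box, while the window of its other start held 3 GC boxes. Both windows are rich in CpG, with 26 and 31 CpG pairs against a median of 11 over all windows. GATA3 has 6 starts in the table, whose windows held 4 to 30 CpG pairs and, in 4 of them, 1 to 5 GC boxes. No matches to different motifs overlapped in the 13 member windows, and neither the estrogen response element nor TGACGTGG matched in one. TGACGTGG was the only form of an XBP1 element searched. Other sites that XBP1 may bind, also those that include a CCAAT box, were not searched.

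**Figure D2:**
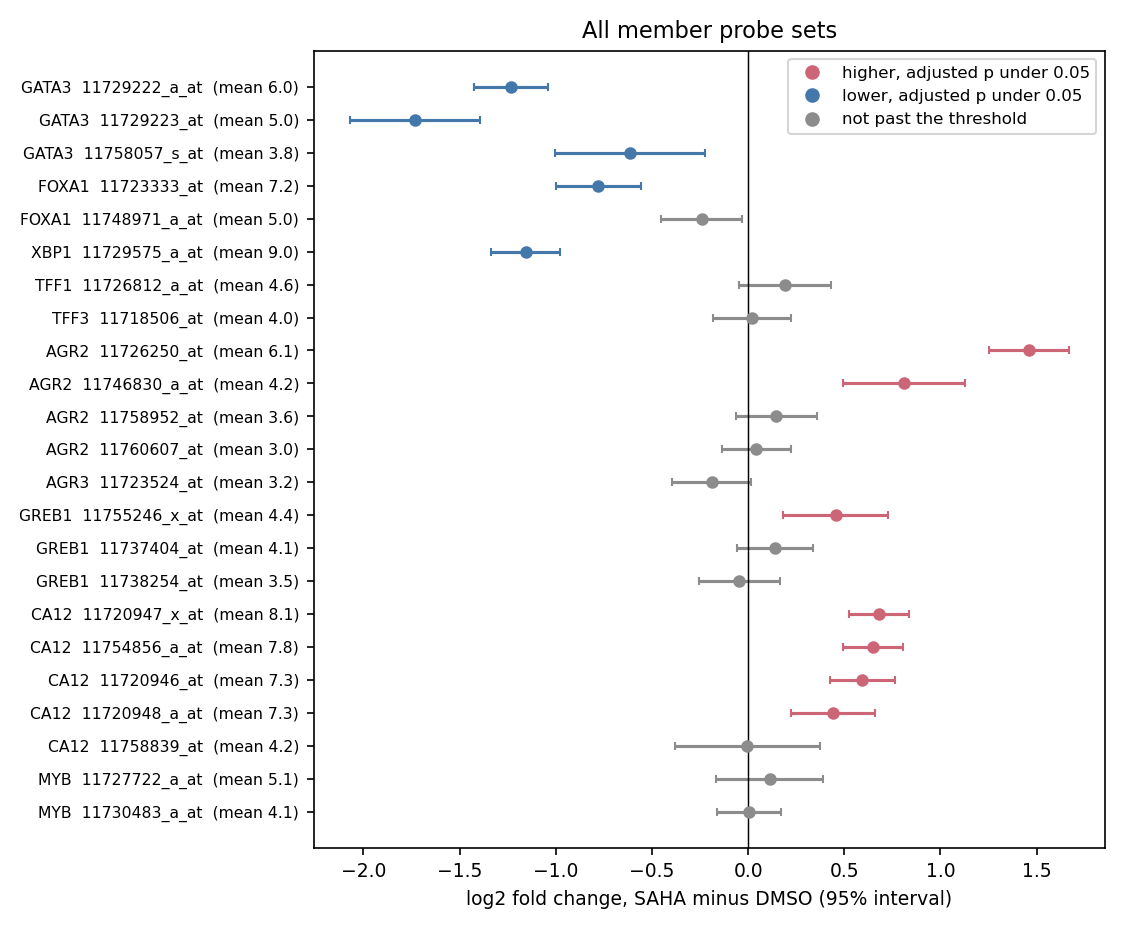
The log2 fold change (SAHA minus DMSO) of all 23 member probe sets is drawn with its 95% interval from limma. Values in brackets are mean log2 values, and colours mark the call at an adjusted p under 0.05. GATA3 lies to the left in all 3 probe sets and CA12 to the right in 4 of 5, whereas the intervals of 2 of 4 AGR2, 2 of 3 GREB1 and 1 of 5 CA12 probe sets, all dim, cross 0.

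Among the secreted and secretory-pathway members, AGR2 rose and its paralogue AGR3 did not pass. AGR2 is a protein disulfide isomerase of the endoplasmic reticulum that is needed for mucin secretion. Its brightest probe set (11726250_at) was at 5.36, 5.26 and 5.36 in DMSO and 6.62, 6.80 and 6.94 in SAHA arrays. DMSO arrays were nearly level, and each SAHA array lay more than 1 log2 unit above them. The log2 fold change was 1.46 ± 0.09 (limma's adjusted p = 5.94e-06), a rise of 2.75-fold. A second, dim probe set (11746830_a_at) rose by 0.81 ± 0.14, from 3.78, 3.61 and 4.03 to 4.70, 4.37 and 4.78 (limma's adjusted p = 0.00146). The remaining ones, at mean log2 values of 3.57 and 3.01, gave 0.15 ± 0.09 and 0.04 ± 0.08 and did not pass (limma's adjusted p = 0.240 and 0.705). The former passed only after centring on poly-A spike-ins, at 0.31 (limma's adjusted p = 0.038). Averaged over its 4 probe sets, AGR2 rose by 0.61 log2 units, well below the value of the brightest one.

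AGR3, a closely related disulfide isomerase tied to ciliated and luminal cells, was among the dimmest members. It was at 3.306, 3.406 and 3.102 in DMSO and 3.130, 3.004 and 3.111 in SAHA arrays, with overlapping groups. Its difference of -0.19 ± 0.09 did not pass (limma's adjusted p = 0.123, 95% interval -0.40 to 0.02). Without the third DMSO array it was -0.27 and passed (limma's adjusted p = 0.0254).

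AGR2 and AGR3 are next to each other on chromosome 7 and are transcribed from the same strand. AGR3 was dim, at a mean log2 value of 3.18, and whether sequence bears on the calls was not tested. The promoters of AGR2 and AGR3 are printed side by side as those of 1 called and 1 uncalled paralogue. Both are the 250 bases before the start site on the minus strand of GRCh38.p14 in RefSeq's table, at chr7:16805000-16805249 and chr7:16881984-16882233, with the same motifs in capitals.
AGR2: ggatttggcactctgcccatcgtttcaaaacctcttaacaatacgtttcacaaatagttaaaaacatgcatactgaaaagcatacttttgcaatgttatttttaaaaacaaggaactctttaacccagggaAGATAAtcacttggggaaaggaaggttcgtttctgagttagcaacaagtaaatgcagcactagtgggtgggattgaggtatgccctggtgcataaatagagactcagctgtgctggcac
AGR3: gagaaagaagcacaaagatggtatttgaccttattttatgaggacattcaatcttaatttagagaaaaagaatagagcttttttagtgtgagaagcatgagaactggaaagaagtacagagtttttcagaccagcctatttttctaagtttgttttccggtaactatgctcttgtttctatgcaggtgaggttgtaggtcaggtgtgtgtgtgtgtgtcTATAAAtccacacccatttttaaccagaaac
Both are poor in CpG, with 3 pairs in AGR2 and 1 in AGR3, and their bases are 40.4% and 36.4% G or C. AGR2 held 1 GATA site, 119 bases before the start, the only match to that motif among the 13 member windows. AGR3 held an exact TATAAA match 31 bases before its start. Similar strings, such as cataaata near the start of AGR2, were not counted, so no difference in TATA boxes between AGR2 and AGR3 can be read.

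The measured genes along the chromosome, in the order of RefSeq's table, were BZW2, TSPAN13, AGR2, AGR3 and AHR. These neighbours were looked up after the values of the members had been seen. TSPAN13, a tetraspanin, rose by 3.80 ± 0.06, from 6.22, 6.40 and 6.30 in DMSO to 10.09, 10.09 and 10.14 in SAHA arrays (limma's adjusted p = 8.52e-08 over genes). Its only probe set is of a kind shared by similar transcripts. AHR, the aryl hydrocarbon receptor, rose by 1.10 ± 0.05 and BZW2 by 0.25 ± 0.07. AGR3 was thus the only one of the 5 whose brightest probe set did not pass. Over all genes 48.3% were called, and 11.9% of those with a mean log2 value under 5, where AGR3 lay, at 3.18.

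**Figure D3:**
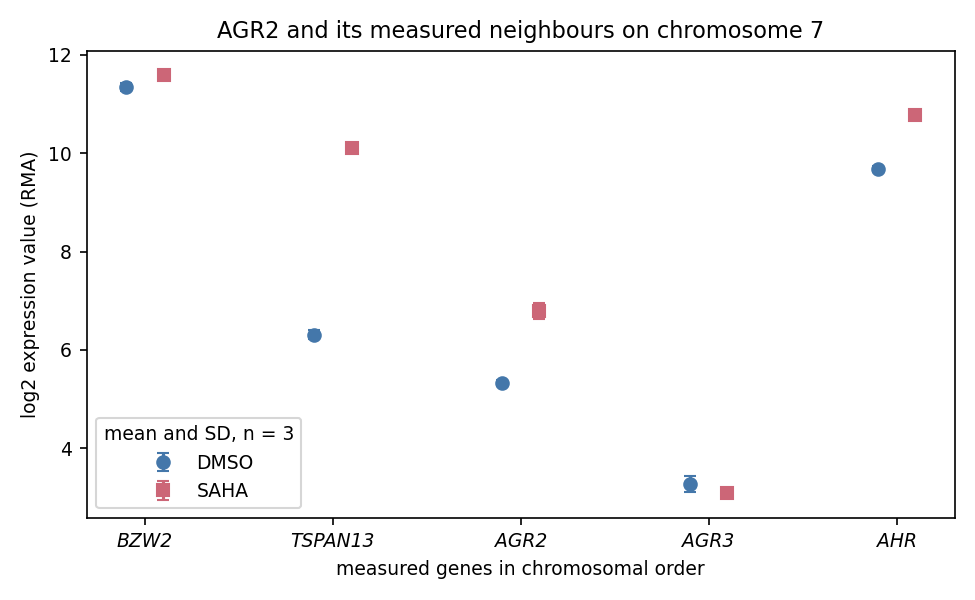
Mean log2 expression values with SD (n = 3) are shown for AGR2 and the measured genes on either side of it, in chromosomal order and without distances. SAHA lies above DMSO for BZW2, TSPAN13, AGR2 and AHR and not for AGR3.

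The trefoil factors TFF1 and TFF3 are small secreted peptides that protect mucosal surfaces, and TFF1 is a textbook estrogen-induced transcript. TFF1 was at 4.29, 4.58 and 4.66 in DMSO and 4.63, 4.71 and 4.76 in SAHA arrays. The second and the third SAHA arrays lay above all DMSO arrays and the first did not. Its difference was 0.19 ± 0.10 (limma's adjusted p = 0.172, 95% interval -0.05 to 0.43), which passed only after centring on poly-A spike-ins, at 0.36 (limma's adjusted p = 0.0300). TFF3 was at 3.98, 4.09 and 3.84 in DMSO and 3.93, 3.93 and 4.12 in SAHA arrays, intermixed. Its difference was 0.02 ± 0.09 (limma's adjusted p = 0.881, 95% interval -0.18 to 0.22). TFF2, which lies between them on chromosome 21, was at 0.14 ± 0.17 and did not pass.

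CA12, a membrane carbonic anhydrase that acidifies the space around cells, rose in 4 of its 5 probe sets. The brightest (11720947_x_at) was at 7.80, 7.79 and 7.82 in DMSO and 8.57, 8.39 and 8.49 in SAHA arrays. DMSO arrays were nearly identical, and the lowest SAHA array lay well above them. The log2 fold change was 0.68 ± 0.07 (limma's adjusted p = 6.72e-05), a rise of 1.60-fold. That probe set is of a kind shared by similar transcripts. The next 3, which are not, gave 0.65 ± 0.07, 0.59 ± 0.07 and 0.44 ± 0.09. The dim last one (11758839_at), at a mean log2 value of 4.21, gave -0.004 ± 0.16 (limma's adjusted p = 0.987, 95% interval -0.38 to 0.37). The 4 called probe sets of CA12 thus lay between 0.44 and 0.68.

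The promoter of CA12 is printed as that of a member that rose in a CpG-containing window, beside the CpG-poor one of AGR2. It lies at chr15:63381847-63382096, minus strand, in RefSeq's GRCh38.p14 table.
CA12: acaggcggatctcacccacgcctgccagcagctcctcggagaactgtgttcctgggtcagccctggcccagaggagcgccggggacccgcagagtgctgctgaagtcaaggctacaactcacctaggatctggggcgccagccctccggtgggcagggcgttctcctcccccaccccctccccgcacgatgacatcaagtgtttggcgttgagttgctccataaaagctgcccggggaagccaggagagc
It held 13 CpG pairs, near the median of 11, and no exact match to any of the 7 motifs. The similar string cataaaa near its start was not counted.

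GREB1, an estrogen receptor cofactor and early target, was called in 1 of 3 probe sets. That one (11755246_x_at) was at 4.29, 4.38 and 3.97 in DMSO and 4.56, 4.64 and 4.81 in SAHA arrays. The groups did not overlap, yet all values were dim. It rose by 0.46 ± 0.12 (limma's adjusted p = 0.0131), and without the third SAHA array it was at 0.38 and did not pass (limma's adjusted p = 0.0501). The remaining ones gave 0.14 ± 0.09 and -0.05 ± 0.09, with overlapping groups (limma's adjusted p = 0.237 and 0.731). The called probe set is one shared by similar transcripts, and without such probe sets the gene did not pass.

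MYB, a transcription factor of progenitor cells that is also estrogen dependent in luminal lines, did not pass in either probe set. The brighter one (11727722_a_at) was at 5.09, 5.26 and 4.77 in DMSO and 5.17, 5.21 and 5.07 in SAHA arrays. The SAHA arrays lay within the range of the DMSO arrays. Its difference was 0.11 ± 0.12 (95% interval -0.17 to 0.39), and the other probe set gave 0.01 ± 0.07 (95% interval -0.16 to 0.17). Its relative MYBL1 rose by 0.96 ± 0.07, and MYBL2 was at -0.12 ± 0.07 and did not pass.

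**Figure D4:**
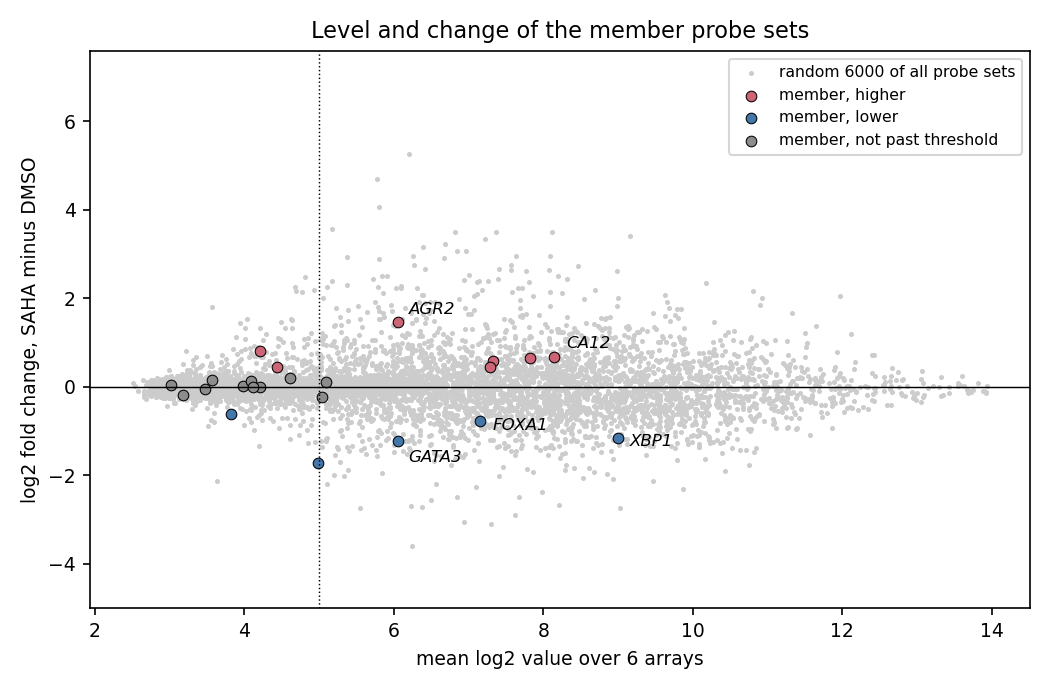
The mean log2 value over the 6 arrays is plotted against the log2 fold change for the 23 member probe sets, over a random 6000 of all probe sets in grey. The dotted line marks a mean of 5, left of which 4 of the 13 members were called, against 8 of the 10 at or to the right of it.

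Other luminal genes moved both ways. Of 36 measured luminal markers, receptors and keratins outside the set, 12 rose and 7 fell, with a median log2 fold change of 0.09, against -0.01 over all genes. KRT19, a keratin of simple epithelia, rose by 2.74 ± 0.08, the surface glycoprotein CD24 by 4.05 ± 0.12 and NAT1, an arylamine acetyltransferase high in luminal tumours, by 1.82 ± 0.07. The only probe set of CD24, at a DMSO mean of 4.46, is of a kind shared by similar transcripts. MLPH, a melanosome transport adaptor that is also a luminal marker, fell by 1.25 ± 0.05. ESR1 itself was at 0.04 ± 0.06 in its brightest probe set (limma's adjusted p = 0.697 over genes). Its 5 probe sets gave -0.24 to 0.13 and none passed. Among these genes the share called was 52.8%, near the 48.3% of all genes.

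Of 28 measured estrogen response genes, 12 rose and 6 fell, with a median of 0.10, so that 64.3% were called against 48.3% of all genes. Of the 20 with a mean log2 value of at least 5, 18 were called, against 63.3% of all such genes. Of the 8 dimmer ones 0 were called, against 11.9%. CCND1, the G1 cyclin, fell by 2.19 ± 0.06 and NRIP1, a corepressor of nuclear receptors, by 2.23 ± 0.11. TPD52L1 rose by 1.89 ± 0.09 in its only probe set, which is of a kind shared by similar transcripts. KRT19, PGR and MYBL1 are each in 2 of the lists.

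Of 22 measured basal and mesenchymal genes, 9 fell and 4 rose, with a median of -0.05, so that 59.1% were called against 48.3% of all genes. Of the 19 with a mean log2 value of at least 5, 57.9% were called, against 63.3% of all such genes. Of the 3 dimmer ones 2 were called, against 11.9%. EGFR, the receptor typical of basal-like lines, fell by 1.87 ± 0.05, the AP-1 subunit FOSL1 fell by 1.76 ± 0.06 and CAV1, of caveolae, fell by 0.71 ± 0.05. SNAI2, a repressor of epithelial genes, rose by 1.24 ± 0.08. With poly-A spike-ins as the reference level, 5 of these genes were lower.

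The fall of XBP1 can be set beside its known targets of the secretory pathway, of which 24 were measured. Of these, 11 rose and 6 fell, with a median of 0.13. The share called was 70.8%, and since all 24 had a mean log2 value of at least 5, the share to read it against is the 63.3% of all such genes. The chaperone cofactor DNAJB11 rose by 0.94 ± 0.06, the ubiquitin ligase SYVN1 by 0.99 ± 0.06 and the chaperone HYOU1 by 0.71 ± 0.05. DERL2, of protein export from the endoplasmic reticulum, fell by 0.65 ± 0.05. SYVN1 was at 0.17 in its second probe set and did not pass there. With poly-A spike-ins as the reference level, 2 of them were lower.

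Of 19 measured relatives of the members, 7 rose and 3 fell, with a median of 0.01, and the share called, 52.6%, lay near the 48.3% of all genes. The bZIP factors CREB3L1 and CREB3L2 rose by 1.93 ± 0.14 and 0.94 ± 0.06, and TXNDC12, a relative of AGR2, by 0.64 ± 0.05. Calls of CREB3L1 and CREB3L2 rest on some of their probe sets: CREB3L1 was at 0.13 and CREB3L2 at -0.22 in the second brightest one, where neither passed. GATA1, GATA4, GATA5 and GATA6 did not pass, GATA2 rose by 0.36 ± 0.06 and TRPS1, an atypical GATA factor, fell by 0.31 ± 0.08.

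**Figure D5:**
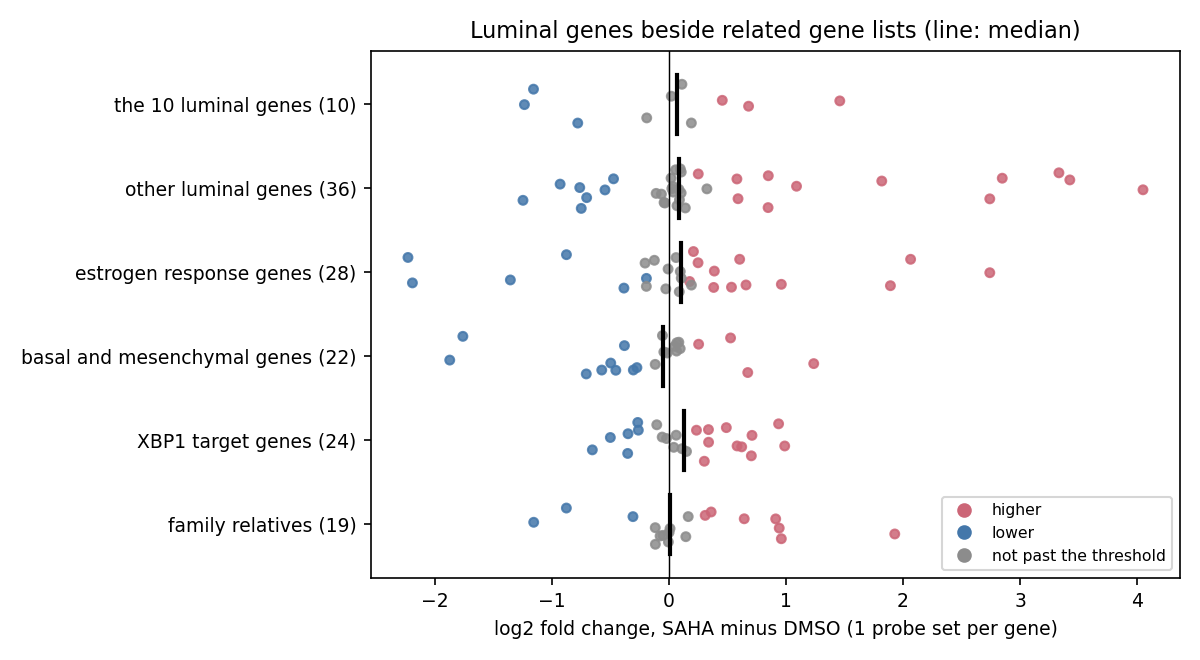
Each point is the log2 fold change (SAHA minus DMSO) of 1 gene in the gene-level fit, by list, with the number of measured genes in brackets and the median as a black line. The medians lie between -0.05 and 0.13, and each list holds genes called in both directions.

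How many rises and falls were called depended on how the arrays were scaled. Over all probe sets 10949 were higher and 11901 lower, against 13902 and 9719 after centring on ribosomal protein genes and 14255 and 6960 after centring on poly-A spike-ins. Over genes these counts were 4457 and 4307, 5601 and 3551, and 5829 and 2556. Centring on poly-A spike-ins moved the median of all genes by 0.16, and 9 member probe sets were then higher and 5 lower. GATA3, FOXA1 and XBP1 stayed lower and AGR2, CA12 and GREB1 higher in their brightest probe sets under each of the 3 centrings.

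Among all other genes, those whose centred values over the 6 arrays lay nearest to those of AGR2, the member with the largest change in the gene-level fit, were COL4A4, HOOK2 and STON1. Their root mean square distances were 0.06, 0.07 and 0.07 log2 units, and they rose by 1.40 ± 0.09, 1.43 ± 0.06 and 1.35 ± 0.06. As they were picked by this nearness, rises close to that of AGR2 follow from the choice.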

How the data were processed

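RNA of 6 samples was amplified from its 3' ends, biotin-labelled and hybridized, per the labels' protocols. The authors deposited 1 log2 value per probe set and array, made with RMA per the submitters' processing notes, without its version. RMA equalizes the arrays' distributions (after sorting, no array lay over 0.0936 from the mean), so a shift of most transcripts cannot be read, and folds near the floor are understated.

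From these values, limma 3.58.1 in R 4.3.3 (lmFit, eBayes, two-sided, no covariates) compared 3 SAHA with 3 DMSO arrays over 49293 probe sets, without 102 array controls, and over 18132 genes, each as its brightest probe set that names only that gene. Adjusted p-values are Benjamini-Hochberg over the whole table. Gene names came from the platform annotation; promoters of 7 members came from RefSeq (GRCh38.p14). Array controls had exact permutation tests. The procedure was tested on simulated data. Same-numbered arrays did not deviate together (r = -0.10, -0.08 and -0.03), so no block was used.

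The members and gene lists were chosen with earlier results of these data known. Of the lists, 10 entries were not analysed here. Named in the text are all members, the 4 genes with the smallest p in each list, ESR1 and, chosen after their values were seen, FOXA2, FOXA3, AHR, TSPAN13 and other neighbours, GATA relatives and MYBL2. Alternatives were a replicate block, filters, scalings, moderation, array weights, a threshold of 0.01, other probe set choices and leaving out each array. Figures used matplotlib 3.10.9.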

Additional observations from a re-analysis of the deposited data

How the results depend on the processing

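Over 18 other settings, 827 of 874 values of members and named genes kept their direction and their side of the threshold, 13 lost the call, 8 gained it and 24 values not past the threshold changed sign. CREB3L2 turned to -0.22 with its second brightest probe set and without _x_at and _s_at probe sets, in neither case past the threshold. The brightest probe sets of GATA3, XBP1, AGR2 and CA12 kept their calls throughout. With their second probe sets FOXA1 (-0.24, limma's adjusted p = 0.0601) and GREB1 (0.14, adjusted p = 0.232) lost their calls; XBP1, with 1 probe set, was left out, so that 1 member gene was lower there. Of the counts, 303 of 316 stayed within 1.5 times. With the second brightest probe sets 2719 genes were higher, with 6 other luminal, 4 estrogen response, 2 basal and mesenchymal, 5 XBP1 target and 3 family genes higher and 1 family gene lower, the genes with 1 probe set being left out. Centred on poly-A spike-ins, 6960 probe sets, 2556 genes, 5 basal and mesenchymal genes and 2 XBP1 targets were lower; the cause was not tested. Without _x_at and _s_at probe sets 7747 probe sets were lower, as fewer were tested. With the replicate block 7 member probe sets were higher and 5 lower, with 10255 and 11199 over all. Of the 71 values and counts under it, each value kept its direction and side of the threshold. Each count stayed within 1.5 times. Leaving out 1 array gave 6 to 7 member probe sets higher and 4 to 6 lower. Precision is limited by 3 arrays per group and by probe sets near the floor.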

Other observations

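Among the luminal genes outside the set, 3 more rose by over 2 log2 units, named here after their values were seen. ELF3, an epithelial ETS factor, rose by 3.43 ± 0.14, the cochaperone DNAJC12 by 3.33 ± 0.17 and the receptor ERBB3 by 2.85 ± 0.20 in limma's gene-level fit. Their DMSO means were 4.74, 4.73 and 4.65, and the brightest probe sets of ELF3 and ERBB3 are of a kind shared by similar transcripts. ERBB3 was higher in all 3 of its probe sets, by 1.03 to 2.85. The tight junction genes CLDN3, CLDN4 and CLDN7 rose by 0.58 ± 0.06, 0.85 ± 0.09 and 0.85 ± 0.06, whereas the keratins KRT7 and KRT18 fell by 0.76 ± 0.08 and 0.55 ± 0.07 and EPCAM, an epithelial adhesion molecule, by 0.93 ± 0.06. SPDEF, an ETS factor of luminal and secretory cells, was at 0.07 ± 0.06 and did not pass.

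Next to other members along the chromosome, some of the measured genes were called and some were not, in an experiment where 48.3% of all genes were called. CCDC117, next to XBP1, fell by 0.72 ± 0.08 in limma's gene-level fit, and ZNRF3 on its other side was at -0.06 ± 0.08. MIPOL1, on one side of FOXA1, rose by 1.02 ± 0.08, and TTC6, on the other, was at 0.07 ± 0.08. TAF3, next to GATA3, rose by 0.71 ± 0.05, and CELF2 was at 0.04 ± 0.06. USP3, next to CA12, fell by 0.84 ± 0.06, and APH1B was at 0.04 ± 0.07. AHI1, next to MYB, rose by 0.62 ± 0.07, and HBS1L was at 0.08 ± 0.06. Beside GREB1, E2F6 was at -0.09 ± 0.06 and NTSR2 at -0.05 ± 0.09. ABCG1, next to TFF3, rose by 0.90 ± 0.12 and TMPRSS3, next to TFF1, by 0.30 ± 0.10, with TFF2 on the other side of each. Of these genes, ZNRF3, TTC6, CELF2, APH1B, HBS1L, E2F6 and NTSR2 did not pass.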
